A study of Mus musculus with 10 samples.

Results

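The change of open chromatin after withdrawal of Wnt3a was described in colon organoids that lack the aryl hydrocarbon receptor (AHR), from the 5 AHR KO libraries of a series of 10. All 5 libraries carry the AHR KO genotype and come from mouse colon organoids, which are cultures of colon crypt epithelium. The 3 AHR KO WENR libraries were made from organoids in WENR, the medium with Wnt3a. The 2 AHR KO d4 ENR libraries were made 4 days after a switch from WENR to ENR, the differentiating medium, and the remaining 5 libraries of the series are WT. According to the methods of the study the knockout comes from *Ahr* fl/fl mice on a C57BL/6 background with Cre under the villin promoter, which acts in intestinal epithelium. Beyond Wnt3a, WENR holds small-molecule inhibitors of p38 and of the TGF-beta receptor ALK5, and nicotinamide, so the contrast is one of media. No source says whether libraries of equal number come from 1 animal or organoid line, and p-values measure the spread between these libraries only.

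In ATAC-seq a transposase cuts and tags DNA where chromatin is open, so that active promoters and enhancers appear as peaks of fragments. AHR is a transcription factor that is activated by ligands from diet, microbes and tryptophan metabolism and binds DNA together with ARNT. In the colon epithelium, Wnt signals keep crypt base cells proliferating through TCF/LEF factors, and their withdrawal lets absorptive colonocytes and goblet cells form. YAP and its DNA-binding partners of the TEAD family, often with AP-1 factors (dimers of FOS and JUN proteins), drive regenerative and fetal-like genes, whereas HNF4 and CDX factors maintain the mature intestinal programme.

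*Ahr*, the gene targeted in these organoids, spans 35497974 to 35535038 of chromosome 12 in GRCm38. The signal of a gene is the estimated number of fragments in called peaks from 5 kb before it to 5 kb after it, scaled to a library of 1000000 fragments (fpm). At *Ahr* this signal was 57.2, 63.2 and 69.3 fpm in WENR and 28.3 and 34.2 fpm in d4 ENR, lower in both d4 ENR libraries than in every WENR library. A fall on this scale was general, since 86.8% of the 15364 genes tested were called lower by limma. Peaks over a gene do not show whether its floxed part is deleted, so these values do not check the knockout. All 7 epithelial marker genes had peaks in all 5 libraries, with a summed signal of 1124 to 1249 fpm in WENR and 564 to 719 in d4 ENR. Relative to the median gene, a measure explained below, 2 of them were lower, *Krt18* at -0.69 (adjusted p = 0.013) and *Cdh1* at -0.43 (adjusted p = 0.041), and none higher by limma. Some defining genes of other cell types had no peak at all. The T cell gene *Cd3e*, the fibroblast gene *Col1a2* and the glial gene *Sox10* had no peak in any of the 5 libraries. Other markers of such cells did, and 2 of the 5 immune and 3 of the 6 mesenchymal markers had peaks in all 5 libraries. So had 2 of the 3 endothelial and 2 of the 4 neural and glial markers. The immune marker *Cd68* held 20.4 to 44.7 fpm over the 5 libraries and the mesenchymal marker *Pdgfra* 5.64 to 17.3 fpm. The summed signal of the 6 mesenchymal markers was 31.5 to 37.3 fpm in WENR and 11.1 to 16.2 in d4 ENR, and that of the 5 immune markers 44.1 to 47.8 and 28.2 to 29.3. The 3 endothelial markers summed to 1.33 to 6.64 and the 4 neural and glial markers to 2.00 to 14.4 over the 5 libraries. A peak near a gene is not its expression, and the part of other cells in the results below was not tested.

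AHR KO organoids had less of their signal in peaks after Wnt3a withdrawal. Of all fragments, 67.2, 68.3 and 68.6% lay in called peaks in the WENR libraries, against 33.8 and 44.2% in the d4 ENR libraries. The number of peaks was 64948, 63226 and 65308 in the WENR libraries and 49339 and 58359 in the d4 ENR libraries. The genome covered by peaks was 64.0 ± 2.80 Mb (SD, n = 3) under WENR, and after the switch it was 48.3 ± 2.50 Mb (SD, n = 2). None of these 3 measures overlapped between the groups, and the exact permutation test, 2-sided, gave p = 0.2 for each, the smallest p that 3 against 2 libraries allow. Sequencing depth and fragment length moved with the medium. The WENR libraries held 41686181 to 49126792 fragments and the d4 ENR libraries 35860209 and 36307860, and the mean fragment length was 235, 251 and 255 bp in the WENR libraries and 221 and 202 bp in the d4 ENR libraries. Their part in the lower share was not tested. In a bulk sample, fewer cells with an open site and a less open site in each cell cannot be told apart.

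**Figure D1:**
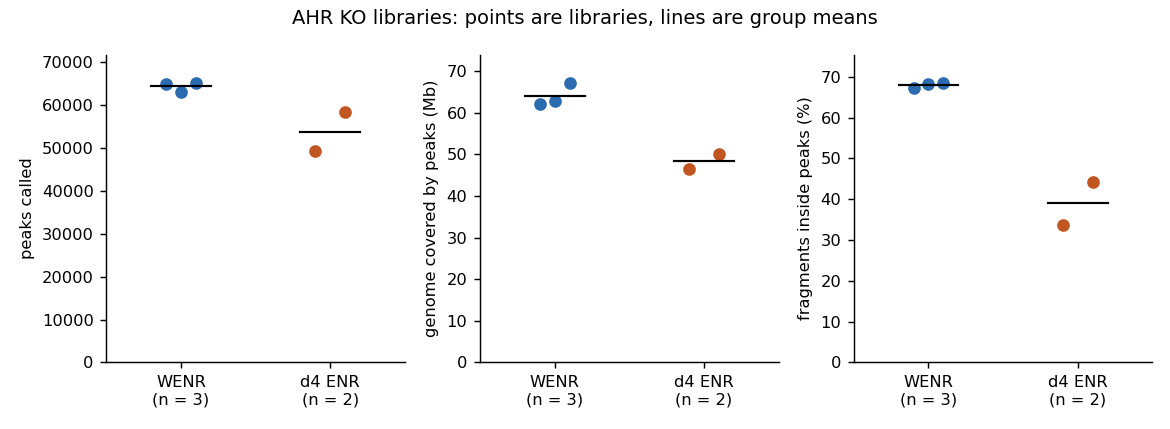
Peaks called, genome covered by peaks in Mb and percent of fragments inside peaks in each AHR KO library, with points for libraries and lines for group means. In all 3 panels the 2 d4 ENR libraries lie below the 3 WENR libraries, with group means for the fragments inside peaks of 39.0% against 68.1%.

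Peaks of the 5 lists merged into 79481 consensus regions. Of these, 40706 held a peak in all 5 libraries and are called kept. A further 8154 (10.3% of all regions) were called in all 3 WENR and in neither d4 ENR library and are called lost, and 2471 (3.11%) were called in both d4 ENR and in no WENR library and are called gained. The other 28150 were called in a part of a group. Loss exceeded gain, and the margin changed with the peaks counted. Each list was shortened to its 49339 strongest peaks, the length of the shortest list. Then 4292 regions were lost and 3962 gained, of which 3195 and 1763 were among those above. Lists of equal length draw such counts together by construction, so they do not show what the margin rested on. With a −log10 q of at least 5, 10498 regions were lost and 1041 gained. A region that is lost did not pass the threshold of the peak caller, which does not show that it was closed.

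Lost and gained regions were weak, narrow and far from promoters compared with kept regions. Their median length was 683 and 533 bp, against 1226 bp for kept regions. Their median distance to a transcription start was 13076 and 12444 bp, against 6338 bp. The peaks of lost regions stood at a median percentile of 25.7 by significance within the WENR lists, and those of gained regions at 24.3 within the d4 ENR lists. Promoters, taken as 1000 bp before to 100 bp after a transcription start, made up 5.46% of lost, 3.97% of gained and 19.3% of kept regions. Seen from the genome features, 4.63% of promoter regions were lost, 8.96% of exonic, 11.4% of intronic and 10.9% of intergenic regions. Gain was seen in 1.02% of promoter and 4.38% of intergenic regions. Within 1 kb of a transcription start 81.8% of regions were kept, and over 50 kb away 38.6%. Lost regions held 2.09 to 2.70% of the peak fragments of the WENR libraries, and gained regions 0.838 and 1.01% of those of the d4 ENR libraries.

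The lost and gained regions with the highest fold enrichment over the local background were looked at, and they are stronger than most regions of their sets. A pair of lost and a pair of gained sites in which a motif was found are printed because the motifs below differ most between these sets. Each is the 300 bases around the midpoint on the plus strand of GRCm38, read from RefSeq, and capitals mark matches to the AP-1, TEAD, TCF/LEF, HNF4 and CDX2 strings. The first lost site, chr15:22733037-22733336, lies in an intron of *Cdh18*, which encodes a cadherin, and holds a pair of AP-1 matches. The second, chr3:155875642-155875941, is intergenic, with *Negr1* the nearest gene 686003 bp away, and holds an AP-1 and a TEAD match. Of the gained sites, chr1:161301591-161301890 is intergenic, 50521 bp from the start of *Prdx6*, and holds an HNF4 match. The other, chr11:50351961-50352260, is intergenic, 2352 bp from the start of *Cby3*, and holds a CDX2 match on the minus strand.
Lost, Cdh18 intron: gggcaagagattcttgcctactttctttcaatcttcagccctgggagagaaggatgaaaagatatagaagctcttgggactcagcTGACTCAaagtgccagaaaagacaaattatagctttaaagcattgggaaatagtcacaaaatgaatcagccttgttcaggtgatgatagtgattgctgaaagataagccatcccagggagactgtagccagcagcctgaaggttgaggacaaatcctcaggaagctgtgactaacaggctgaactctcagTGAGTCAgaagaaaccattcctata
Lost, nearest gene Negr1: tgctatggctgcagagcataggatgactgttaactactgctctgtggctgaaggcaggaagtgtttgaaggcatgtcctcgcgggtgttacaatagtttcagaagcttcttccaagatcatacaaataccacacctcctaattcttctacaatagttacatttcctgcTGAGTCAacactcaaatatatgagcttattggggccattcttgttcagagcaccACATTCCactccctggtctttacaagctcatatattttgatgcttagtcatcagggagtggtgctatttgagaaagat
Gained, nearest gene Prdx6: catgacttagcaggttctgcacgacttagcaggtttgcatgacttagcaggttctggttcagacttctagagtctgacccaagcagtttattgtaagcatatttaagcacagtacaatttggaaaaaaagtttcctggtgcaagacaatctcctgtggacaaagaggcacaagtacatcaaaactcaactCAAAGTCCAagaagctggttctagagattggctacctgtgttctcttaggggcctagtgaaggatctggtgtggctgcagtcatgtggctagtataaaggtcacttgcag
Gained, nearest gene Cby3: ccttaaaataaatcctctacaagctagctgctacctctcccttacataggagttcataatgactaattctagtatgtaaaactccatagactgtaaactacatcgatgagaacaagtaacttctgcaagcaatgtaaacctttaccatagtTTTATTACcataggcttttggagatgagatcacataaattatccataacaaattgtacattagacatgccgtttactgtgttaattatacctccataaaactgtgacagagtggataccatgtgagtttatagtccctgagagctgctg

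In the WENR libraries the lost site in *Cdh18* had fold enrichments of 7.74, 8.95 and 9.42, and the lost site near *Negr1* 8.12, 8.20 and 7.63. The lost regions that ranked between them were chr10:103714989-103715766 near *Slc6a15* with 7.07, 8.50 and 9.31, and chr13:85519189-85520033 near *Rasa1* with 8.47, 8.81 and 7.03. These are high for lost regions, whose median was 3.29. The gained sites near *Prdx6* and *Cby3* had fold enrichments of 6.64 and 6.50 and of 6.40 and 6.46 in the d4 ENR libraries. The highest among gained regions was chr17:70963666-70963891, 226 bp near *Myl12b*, with 22.1 and 24.8. A region in an intron of *Cldn34d* on the X chromosome followed, with 6.82 and 6.96. The median fold enrichment of gained regions was 3.12. The central 50 bases of the region near *Myl12b* occur 1 time in the genome, but inexact copies were not searched. Whether its fragments come from this site was not tested. Neither this region nor the one in *Cldn34d* held a match to the strings above. The lost region near *Slc6a15* held none either.

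AP-1 strings were in a larger share of lost than of kept regions, and HNF4 and CDX2 strings in a larger share of gained regions. The strings were searched on both strands of the central 300 bases. For AP-1 (TGACTCA or TGAGTCA, which are the same site read on either strand), 26.6% of lost, 13.2% of kept and 6.80% of gained regions held a match, and 15.6% of all regions. TEAD strings (ACATTCC or GCATTCC) were in 12.8% of lost, 8.96% of kept, 8.62% of gained and 10.0% of all regions. The HNF4 strings (CAAAGTCCA or CAAAGTTCA) went the other way, with 1.23% of lost, 2.09% of kept, 6.31% of gained and 2.16% of all regions. CDX2 strings (GCAATAAA, GCCATAAA, GTAATAAA or GTCATAAA) were in 8.16, 7.09, 13.5 and 7.95% in the same order. Of these sets, lost and gained regions had a median GC content of 46.0 and 45.3%, and kept regions 50.0%. Since kept regions include more promoters, the shares were also taken in introns and between genes only, where AP-1 was in 28.1% of lost, 16.4% of kept and 6.85% of gained regions and HNF4 in 1.25, 2.52 and 6.46%. CDX2 was there in 8.53, 9.02 and 13.6%, so that lost regions lay below kept regions, the reverse of the order over all features. TEAD was there in 13.3, 10.4 and 8.86%. Over the 8 alternative sets of lost and gained regions, AP-1 was in 23.6 to 34.7% of lost and 6.44 to 7.62% of gained regions. HNF4 was in 1.15 to 1.39% and 5.26 to 7.78%. The sets that leave out 1 library hold every lost and gained region above, so these ranges are not an independent check.

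**Figure D2:**
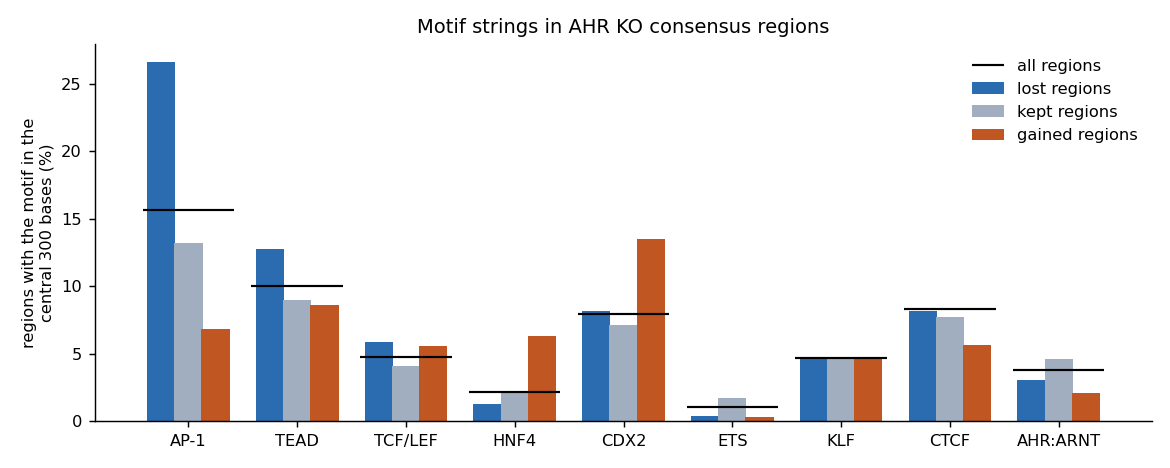
Percent of lost, kept and gained AHR KO regions that hold each motif string in their central 300 bases (bars), with the share over all regions as a black line. AP-1 stands highest in lost regions at 26.6%, and HNF4 and CDX2 stand highest in gained regions at 6.31 and 13.5%.

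The other strings differed by smaller numbers of percentage points between the sets. TCF/LEF (ATCAAAG), through which Wnt signals act on DNA, was in 5.84% of lost, 4.10% of kept and 5.58% of gained regions, and in 4.71% of all. The AHR:ARNT string (TNGCGTG) was in 3.03% of lost, 4.63% of kept, 2.06% of gained and 3.81% of all regions. KLF (CCACACCC) was in 4.67, 4.58, 4.69 and 4.67% in this order. ETS (CCGGAAGT), which is common in promoters, was in 0.331, 1.70, 0.324 and 1.06%, and CTCF (CCACCAGG, CCACTAGG, CCAGCAGG or CCAGTAGG) in 8.16, 7.68, 5.67 and 8.33%. As a ratio, ETS and AHR:ARNT differed between kept and gained regions by more than TEAD did. A match is a string of letters and not a bound site.

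Among the 40706 kept regions, the signal itself was compared. On the fpm scale, it fell at most regions, with a median log2 change of -0.76 (0.592 of the WENR level), and 26109 regions (64.1%) were lower and 1555 (3.82%) higher by limma at an adjusted p of 0.05. Changes are therefore given from here on relative to the median of each library, which takes out this shift. On this relative scale 8194 regions (20.1%) were higher and 5969 (14.7%) lower after Wnt3a withdrawal. The share that changed was larger among intergenic and intronic regions than among promoters. Of 7847 promoter regions 1515 were higher and 536 lower, which is 26.1% in all, against 37.2% of intronic and 39.8% of intergenic regions. A change of more than 1 on the log2 scale was seen in 5.73% of promoter, 10.8% of exonic, 23.4% of intronic and 27.4% of intergenic regions.

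Promoters took a larger share of what remained in peaks. They held 32.0, 32.1 and 31.1% of the peak fragments in WENR and 34.7 and 33.8% in d4 ENR, while introns went from 38.4 ± 0.484% (SD, n = 3) to 36.3 ± 0.231% (SD, n = 2). The promoter shares did not overlap between the groups, and the exact permutation test gave the smallest possible p of 0.2. In the kept regions that changed, AP-1, HNF4, TEAD and CDX2 had the order seen in lost and gained regions. AP-1 was in 23.3% of the regions that were lower and 8.53% of those that were higher, HNF4 in 1.06 and 3.54%, and TEAD in 11.2 and 8.40%. CDX2 was in 7.54 and 8.69%, a smaller gap than between lost and gained regions. CTCF, ETS and AHR:ARNT did not keep that order, with 5.98 and 6.76%, 0.419 and 1.5%, and 3.87 and 3.92%.

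**Figure D3:**
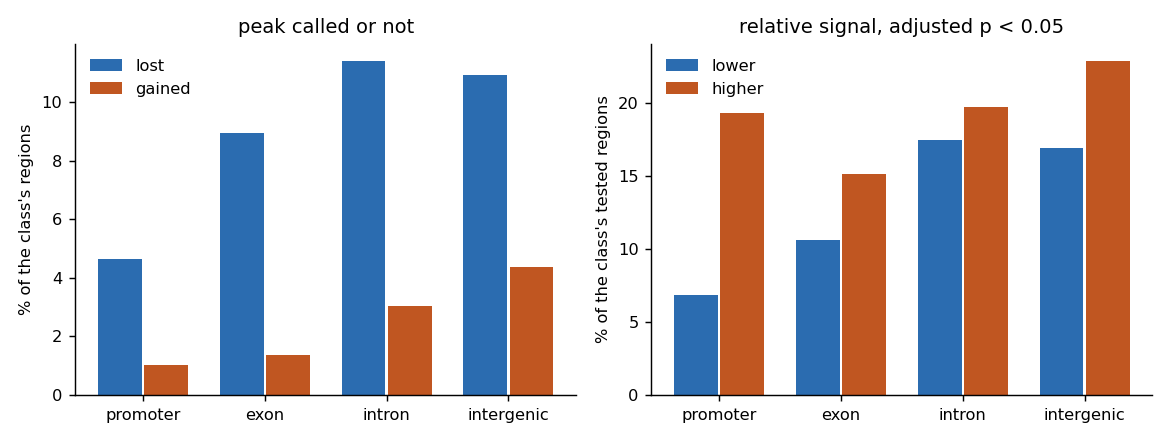
Percent of AHR KO regions of each genome feature that were lost or gained (left), and percent of the kept regions that were lower or higher relative to the median at a limma adjusted p of 0.05 (right). Promoters had the smallest shares lost and gained, 4.63 and 1.02%, and the smallest share lower, 6.83%.

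Single kept regions changed by a large factor. Among the 4 largest falls were a pair of narrower regions. Region chr7:49762521-49764509 in an intron of *Htatip2* held 18.2, 22.7 and 19.8 fpm in WENR and 0.587 and 0.974 fpm in d4 ENR, a relative log2 change of -3.89 ± 0.20 (SE, limma adjusted p = 0.00061). Region chr19:27350489-27352270, which the annotation places in an intron, with *Kcnv2* the nearest protein-coding gene, held 17.2, 20.1 and 19.5 fpm in WENR and 0.594 and 0.919 fpm in d4 ENR, a relative log2 change of -3.83 ± 0.18 (SE, limma adjusted p = 0.00061). At both sites the fold enrichment fell too, from 3.21 to 3.48 in WENR to 2.37 and 2.63 at the first. The largest falls were at chr2:143954751-143957941 in *Rrbp1*, with -4.33 ± 0.33 (SE, limma adjusted p = 0.001), and at chr17:6731338-6738045 in *Sytl3*, with -3.94 ± 0.28 (SE, limma adjusted p = 0.00098). The signal joins the height and the width of peaks, and by fold enrichment alone their direction turns. It was 2.09 and 2.23 in d4 ENR against 1.46 to 1.53 in WENR in *Rrbp1*, and 2.21 and 2.2 against 1.65 to 1.75 in *Sytl3*.

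Among the largest rises, region chr3:9520181-9523716 in an intron of *Zfp704*, a zinc finger gene, held 1.74, 1.42 and 1.53 fpm in WENR and 14.1 and 13.9 fpm in d4 ENR, a relative log2 change of 4.01 ± 0.23 (SE, limma adjusted p = 0.00069). Region chr3:98781331-98784490, nearest to *Hsd3b3*, held 1.99, 0.845 and 0.885 fpm in WENR and 10.5 and 11.1 fpm in d4 ENR, a relative log2 change of 4.09 ± 0.41 (SE, limma adjusted p = 0.0015). In both, all d4 ENR values in fpm lay above all WENR values. The fold enrichment in *Zfp704* overlapped, at 3.82, 3.23 and 2.64 in WENR and 2.97 and 3.67 in d4 ENR, and near *Hsd3b3* it went from 2.66 to 2.84 in WENR to 3.09 and 3.70. Region chr19:11015294-11018811 in *Ms4a18* changed by 4.37 ± 0.53 (SE, limma adjusted p = 0.0023), but its fold enrichment was lower in d4 ENR, 3.08 and 3.46 against 3.98 to 5.29, and its direction turns by that measure. The largest rise, 4.53 ± 0.50 (SE, limma adjusted p = 0.0018) at chr10:3111491-3114964, lies in a repeated sequence, whose central 50 bases occur 27 times in the genome.

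Over genes, 15364 of 21911 protein-coding genes had a peak in all 5 libraries and were tested. On the fpm scale 13339 (86.8%) were lower and 243 (1.58%) higher, with a median log2 change of -0.75. A gene whose relative change is above 0 but smaller than this shift is therefore lower on the fpm scale. Relative to the median gene, 1851 genes (12.0%) were higher and 2392 (15.6%) lower by limma at an adjusted p of 0.05. Among the largest falls were a pair of gasdermin C genes. *Gsdmc2* on chromosome 15 held 62.5, 60.4 and 49.3 fpm in WENR and 1.80 and 1.82 fpm in d4 ENR, a relative log2 change of -4.23 ± 0.15 (SE, limma adjusted p = 0.00035). *Gsdmc4* held 55.9, 52.1 and 43.1 fpm in WENR and 1.89 and 6.61 fpm in d4 ENR, a relative log2 change of -3.08 ± 0.37 (SE, limma adjusted p = 0.0024). Gasdermin C genes are close copies of each other, and the central 50 bases of the strongest region at *Gsdmc4* occur 2 times in the genome, so fragments could have been assigned to either copy. *Scara5*, which encodes a scavenger receptor for ferritin, held 26.3, 27.2 and 38.2 fpm in WENR and 0.619 and 1.68 fpm in d4 ENR, a relative log2 change of -4.14 ± 0.32 (SE, limma adjusted p = 0.00077). *Dkk2*, a secreted modulator of Wnt signalling, held 14.5, 15.9 and 19.6 fpm in WENR and 0.431 and 2.39 fpm in d4 ENR, a relative log2 change of -3.28 ± 0.54 (SE, limma adjusted p = 0.0067). All 4 genes had some signal in both d4 ENR libraries, which the filter for a peak in all 5 libraries requires.

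The other genes of this group were lower too. *Atp10a*, a phospholipid transporter, changed by -3.69 ± 0.50 (SE, limma adjusted p = 0.0034) on the relative log2 scale and *Fxyd4*, a regulator of the sodium pump, by -3.33 ± 0.67 (SE, limma adjusted p = 0.013). The cadherin gene *Cdh18*, in which the lost site printed above lies, held 28.2, 30.5 and 30.1 fpm in WENR and 1.09 and 3.82 fpm in d4 ENR, a relative log2 change of -3.11 ± 0.37 (SE, limma adjusted p = 0.0022). *Gm42715* changed by -3.14 ± 0.47 (SE, limma adjusted p = 0.0047). In these 4 genes the second d4 ENR library held more signal than the first. Both lay below every WENR library, but genes were named here only if their groups did not overlap. The calls of *Fxyd4* and *Gm42715* did not hold with 20 kb on each side, at -0.26 and -0.13 (adjusted p = 0.07 and 0.14).

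The largest rises lay in a few clusters. *A530032D15Rik* and *C130026I21Rik* on chromosome 1 overlap and share their strongest region, so their signals are shared in part. *Sp140*, a nuclear body gene of immune cells, lies on the same chromosome. *A530032D15Rik* held 0.625, 1.47 and 0.903 fpm in WENR and 22.3 and 27.0 fpm in d4 ENR, *C130026I21Rik* 4.70, 5.94 and 7.99 fpm in WENR and 61.3 and 53.3 fpm in d4 ENR and *Sp140* 3.63, 5.22 and 7.1 fpm in WENR and 21.4 and 18.6 fpm in d4 ENR. Their relative log2 changes were 5.45 ± 0.36 (SE, limma adjusted p = 0.00053), 3.98 (adjusted p = 0.00053) and 2.71 (adjusted p = 0.0019) by limma. *Gm10717*, *Gm10718* and *Gm10719* on chromosome 9 share their strongest region and are 1 signal, 96.0, 78.8 and 69.5 fpm in WENR and 302 and 269 fpm in d4 ENR at *Gm10718*, with a relative log2 change of 2.57 ± 0.18 (SE, limma adjusted p = 0.00065). The central 50 bases of that region and of the strongest at *Sp140* each occur 2 times in the genome, so their source is uncertain. The genes outside these clusters were *Tmem182* and *Tmem246*, which encode membrane proteins. *Tmem182* held 12.4, 12.0 and 9.92 fpm in WENR and 36.5 and 49.1 fpm in d4 ENR, a relative log2 change of 2.64 ± 0.11 (SE, limma adjusted p = 0.00035), and *Tmem246* 4.98, 3.86 and 4.72 fpm in WENR and 15.1 and 21.8 fpm in d4 ENR, a relative log2 change of 2.76 ± 0.16 (SE, limma adjusted p = 0.00053). The call of *Sp140* did not hold within 1 kb of the gene start, at 0.64 (adjusted p = 0.1).

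**Figure D4:**
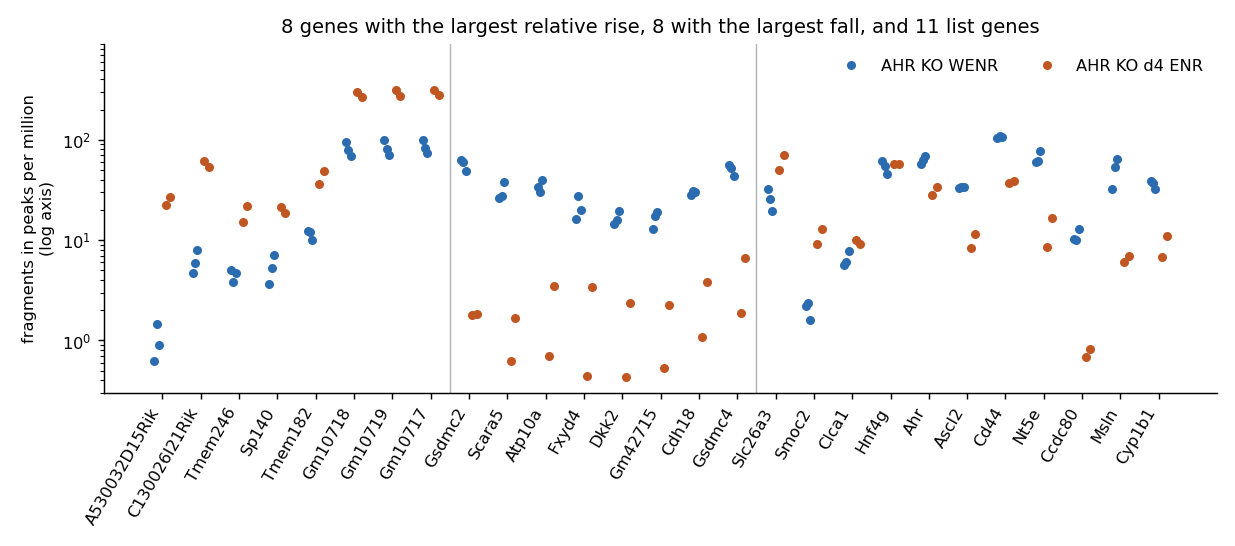
Estimated fragments in peaks per 1000000 fragments (fpm) over each gene with 5 kb on each side (log axis), with 1 point for each AHR KO library, for the 8 genes with the largest relative rise, the 8 with the largest fall and 11 genes of the lists. In *Ccdc80* the d4 ENR libraries held 0.681 and 0.827 against 10.0 to 12.8 in WENR, and in *Slc26a3* 50.3 and 70.0 against 19.5 to 32.7.

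Most tested YAP/TEAD target genes were lower after Wnt3a withdrawal. Of 22 tested genes of 24 listed, 15 were lower and 0 higher relative to the median gene, with a median relative log2 change of -0.50, against 15.6% lower and a median near 0 over all genes. The largest change was in *Ccdc80*, which encodes a matrix protein, with 10.3, 10.0 and 12.8 fpm in WENR and 0.681 and 0.827 fpm in d4 ENR and a relative log2 change of -3.13 ± 0.21 (SE, limma adjusted p = 0.00053). *Nt5e*, the ecto-nucleotidase CD73, held 60.1, 61.4 and 77.7 fpm in WENR and 8.62 and 16.7 fpm in d4 ENR, a relative log2 change of -1.71 ± 0.19 (SE, limma adjusted p = 0.0018). *Tgfb2*, a TGF-beta ligand, changed by -1.73 ± 0.26 (SE, limma adjusted p = 0.0052) and *Amotl1*, which encodes a partner of YAP, by -1.18 ± 0.26 (SE, limma adjusted p = 0.017). In all 4 genes the d4 ENR libraries lay below the WENR libraries, on the relative scale as well as on the fpm scale. On the fpm scale 86.8% of all tested genes were called lower by limma. The classical target *Ccn1* fell by 0.49 on the relative log2 scale (limma adjusted p = 0.033), and *Ccn2* had a value of -0.26 that did not pass the test (adjusted p = 0.18). Without 1 library at a time, 10 to 15 genes of the list were lower. Of the 152 regions around the listed genes, 22 (14.5%) were lost and 1 gained, against 10.3% and 3.11% of all regions. The call of *Ccn1* did not hold in the gene body alone, at -0.19 (adjusted p = 0.24). The call of *Ccn1* did not hold with 20 kb on each side, at 0.07 (adjusted p = 0.65). The call of *Ccn1* did not hold within 1 kb of the gene start, at -0.30 (adjusted p = 0.084). Without the second WENR library limma did not call *Amotl1* and *Ccn1*, without the third WENR library *Ccn1*, without the first d4 ENR library *Ccn1* and without the second d4 ENR library *Ccn1*.

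Of the fetal-like and regeneration genes, which mark epithelium that repairs an injury, most were lower too. Of 14 tested genes of 15 listed, 9 were lower and 1 higher (all genes: 15.6% lower and 12.0% higher), with a median relative log2 change of -0.34. *Msln*, which encodes mesothelin, held 32.6, 53.5 and 65.0 fpm in WENR and 6.08 and 6.90 fpm in d4 ENR, a relative log2 change of -2.15 ± 0.27 (SE, limma adjusted p = 0.0028). *Il33*, an alarmin cytokine, held 46.2, 46.5 and 52.1 fpm in WENR and 7.15 and 14.7 fpm in d4 ENR, a relative log2 change of -1.49 ± 0.18 (SE, limma adjusted p = 0.0025). *Anxa3* changed by -0.74 ± 0.11 (SE, limma adjusted p = 0.0054), and *Ly6a*, which encodes Sca-1, by -0.62 ± 0.06 (SE, limma adjusted p = 0.0016) with 108, 98.9 and 103 fpm in WENR and 36.3 and 44.5 fpm in d4 ENR. The member that was higher was *Sprr1a*, at 0.55 (limma adjusted p = 0.035), and on the fpm scale its log2 change was -0.20, so its direction turns with the scaling. At gene starts the value of *Il33* was 0.13. The number lower was 4 without the second WENR library, 5 without the third WENR library, 4 without the first d4 ENR library and 5 without the second d4 ENR library. Integrin and laminin genes, which anchor epithelium to its matrix, had 6 lower and 1 higher genes of 13 tested, against 15.6% lower and 12.0% higher of all genes, and 20 of 118 regions around them (16.9%) were lost, against 10.3% of all regions. The member that was higher was *Itga2* at 0.48 (adjusted p = 0.018, -0.27 on the fpm scale). The integrin gene *Itgb6* changed by -0.88 ± 0.10 (SE, limma adjusted p = 0.0018) and the laminin gene *Lama5* by -0.68 ± 0.18 (SE, limma adjusted p = 0.03), while *Col17a1* had a value of -1.27 that did not pass (adjusted p = 0.063). The calls of *Ly6a* and *Sprr1a* did not hold in the gene body alone, at -0.94 and 0.20 (adjusted p = 0.082 and 0.59). The call of *Lama5* did not hold with 20 kb on each side, at -0.36 (adjusted p = 0.081). The calls of *Lama5* and *Itga2* did not hold within 1 kb of the gene start, at -0.03 and 0.16 (adjusted p = 0.76 and 0.22). Without the first WENR library limma did not call *Sprr1a*, without the second WENR library *Lama5* and *Sprr1a*, without the third WENR library *Lama5* and *Sprr1a*, without the first d4 ENR library *Lama5* and *Itga2* and without the second d4 ENR library *Lama5* and *Sprr1a*.

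Wnt target and stem cell genes were lower at 10 and higher at 1 of 22 genes, against 15.6% lower and 12.0% higher of all genes, with a median relative log2 change of -0.30. *Ascl2*, a master regulator of the crypt stem cell, held 33.0, 34.0 and 33.7 fpm in WENR and 8.35 and 11.6 fpm in d4 ENR, a relative log2 change of -1.03 ± 0.08 (SE, limma adjusted p = 0.00077). *Cd44*, a Wnt target and adhesion receptor, held 104, 110.1 and 105 fpm in WENR and 36.7 and 38.7 fpm in d4 ENR, a relative log2 change of -0.75 ± 0.09 (SE, limma adjusted p = 0.0028), and 4 of the 12 regions around it were lost. *Slc12a2*, an ion transporter of crypt base cells, changed by -0.96 ± 0.13 (SE, limma adjusted p = 0.0036). The gene for the stem cell receptor *Lgr5* had a value of -0.13 that did not pass the test (adjusted p = 0.49), and *Axin2*, a feedback inhibitor of the pathway, was lower, at -0.52 (adjusted p = 0.0032). The stem cell gene *Smoc2* went the other way, with 2.23, 2.37 and 1.60 fpm in WENR and 9.11 and 12.9 fpm in d4 ENR and a relative log2 change of 3.15 ± 0.23 (SE, limma adjusted p = 0.00068). The number lower was 3 within 1 kb of gene starts, where *Slc12a2* had a value of 0.14, and 6 without the second WENR library and 6 without the third WENR library. The call of *Axin2* did not hold within 1 kb of the gene start, at -0.28 (adjusted p = 0.053).

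Colonocyte genes divided. Of 20 tested genes of 24 listed, 7 were higher and 5 lower relative to the median gene (all genes: 12.0% and 15.6%), with a median relative log2 change of 0.09. *Slc26a3*, the chloride and bicarbonate exchanger of the colon surface, held 32.7, 25.8 and 19.5 fpm in WENR and 50.3 and 70.0 fpm in d4 ENR, a relative log2 change of 1.97 ± 0.19 (SE, limma adjusted p = 0.0014). It was higher on both scales, at 1.22 on the fpm scale. *Slc51b*, a subunit of the bile acid exporter, changed by 1.03 ± 0.12 (SE, limma adjusted p = 0.0021) relative to the median, but its values overlapped on the fpm scale, at 20.4, 17.0 and 16.1 fpm in WENR and 18.2 and 25.7 fpm in d4 ENR. The carbonic anhydrase gene *Car1* and the mucin gene *Muc3* were lower, at -0.96 ± 0.14 (SE, limma adjusted p = 0.0046) and -1.25 ± 0.10 (SE, limma adjusted p = 0.00093). The other colonocyte genes that were lower were *Cdhr2* at -0.34 (adjusted p = 0.016), *Scnn1a* at -0.72 (adjusted p = 0.0032) and *Hpgd* at -0.49 (adjusted p = 0.0096) by limma. Higher by limma were also *Krt20* at 0.90 (adjusted p = 0.046) and *Aqp8* at 0.70 (adjusted p = 0.026). So were *Lypd8* at 0.45 (adjusted p = 0.018), *Guca2a* at 0.45 (adjusted p = 0.039) and *Mep1a* at 0.34 (adjusted p = 0.019). On the fpm scale these genes had values of 0.15, -0.05, -0.29, -0.30 and -0.40 in this order. Their single calls under the alternatives are not reported here. The number of colonocyte genes that were higher was 1 on the fpm scale, and 2 without the second WENR library, 3 without the third WENR library and 3 without the first d4 ENR library. Of 103 regions around these genes 1 was lost and 6 were gained, against 10.3% and 3.11% of all regions. The call of *Slc51b* did not hold in the gene body alone, at 1.40 (adjusted p = 0.12). The call of *Cdhr2* did not hold with 20 kb on each side, at 0.03 (adjusted p = 0.68). The call of *Cdhr2* did not hold within 1 kb of the gene start, at 0.40 (adjusted p = 0.019). Without the second d4 ENR library limma did not call *Cdhr2*.

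Of 13 tested goblet cell genes, 3 (23.1%) were higher and 0 lower, against 12.0% and 15.6% of all genes. *Atoh1*, the factor that commits cells to the secretory lineage, held 16.9, 13.4 and 13.9 fpm in WENR and 13.2 and 19.2 fpm in d4 ENR, a relative log2 change of 0.87 ± 0.13 (SE, limma adjusted p = 0.0046). *Clca1*, a protein of goblet cell mucus, held 5.70, 6.03 and 7.76 fpm in WENR and 9.95 and 9.20 fpm in d4 ENR, a relative log2 change of 1.32 ± 0.21 (SE, limma adjusted p = 0.0058), and *Clca3b* changed by 0.86 ± 0.20 (SE, limma adjusted p = 0.02). On the fpm scale the d4 ENR values of *Atoh1* and *Clca3b* overlapped with those in WENR, and 1 gene of the list was higher. *Muc2*, the main mucin of the colon, had a relative value of 1.43 ± 0.66 (SE) that did not pass (limma adjusted p = 0.15). Rarer cell types had few genes with peaks in all libraries, and their counts are to be read against 15.6% of all genes that were lower. Of 8 enteroendocrine genes 2 were lower, *Tph1* at -0.71 (adjusted p = 0.015) and *Isl1* at -0.58 (adjusted p = 0.0082), and 1 to 2 were lower with 1 library left out. Of 6 tuft cell genes 1 was lower, *Dclk1* at -1.07 (adjusted p = 0.017), which turned to 0.58 with 20 kb on each side of the gene. That share (16.7%) is near that of all genes, and 0 to 3 tuft cell genes were lower with 1 library left out. The call of *Clca1* did not hold in the gene body alone, at 0.50 (adjusted p = 0.088). Without the first WENR library limma did not call *Clca3b*, *Tph1* and *Dclk1*, without the second WENR library *Tph1* and *Dclk1*, without the third WENR library *Clca3b* and *Dclk1* and without the first d4 ENR library *Clca3b*.

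Intestinal transcription factor genes were higher at 5 and lower at 5 of 22 genes (22.7% each), against 12.0% and 15.6% of all genes. On the fpm scale 1 was higher and 17 were lower. *Isx*, a homeobox factor of the gut, changed by 1.17 ± 0.23 (SE, limma adjusted p = 0.012) on the relative log2 scale and *Hnf4g*, which encodes a nuclear receptor of mature enterocytes, by 0.85 ± 0.15 (SE, limma adjusted p = 0.0072). *Hnf4g* held 61.0, 54.3 and 45.8 fpm in WENR and 57.3 and 57.6 fpm in d4 ENR, values that overlapped between the groups. The fpm values of *Isx* overlapped too. The other members that were higher were *Rxra* at 0.75 (adjusted p = 0.0011, 0.0008 on the fpm scale), *Prdm1* at 0.78 (adjusted p = 0.0015, 0.033 on the fpm scale) and *Nr5a2* at 0.72 (adjusted p = 0.022, -0.03 on the fpm scale). *Hnf4a*, the paralog of *Hnf4g*, was lower, at -0.25 (limma adjusted p = 0.024), *Hoxb13*, a homeobox gene of the distal colon, was lower, at -0.81 (adjusted p = 0.042), and *Creb3l3* had a value of -0.79 that did not pass (adjusted p = 0.13). Among the others that were lower were *Klf5* at -0.40 (adjusted p = 0.015) and *Foxa2* at -0.60 (adjusted p = 0.0032). The number lower on this list was 1 without the second WENR library, 3 without the third WENR library and 2 without the second d4 ENR library. AP-1 factor genes were lower at 3 and higher at 0 of 12 genes, against 15.6% lower and 12.0% higher of all genes. These were *Batf* at -0.58 (adjusted p = 0.03), *Atf3* at -0.48 (adjusted p = 0.019) and *Junb* at -0.33 (adjusted p = 0.023). The number lower was 0 without the second WENR library, 1 without the third WENR library, 1 without the first d4 ENR library and 0 without the second d4 ENR library. *Fos* and *Jun* themselves had values of 0.01 and 0.12 that did not pass. The call of *Junb* did not hold with 20 kb on each side, at -0.17 (adjusted p = 0.076). The calls of *Foxa2*, *Hnf4a*, *Klf5*, *Prdm1* and *Rxra* did not hold within 1 kb of the gene start, at values from -0.24 to 0.15 (adjusted p = 0.084 to 0.75). The calls of *Hoxb13*, *Atf3*, *Hnf4a* and *Klf5* did not hold with lists of equal length, at values from -0.70 to 0.06 (adjusted p = 0.059 to 0.77). Without the first WENR library limma did not call *Hoxb13* and *Hnf4a*, without the second WENR library *Hoxb13*, *Batf*, *Atf3*, *Junb*, *Hnf4a*, *Klf5* and *Nr5a2*, without the third WENR library *Hoxb13*, *Batf* and *Junb*, without the first d4 ENR library *Isx*, *Batf*, *Atf3*, *Hnf4a* and *Nr5a2* and without the second d4 ENR library *Batf*, *Atf3*, *Junb*, *Hnf4a* and *Klf5*.

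AHR pathway genes, in organoids without AHR, were lower at 3 and higher at 0 of 11 tested genes (27.3% lower, against 15.6% of all genes), with a median relative log2 change of 0.02. The cytochrome P450 gene *Cyp1b1* held 39.2, 37.2 and 32.3 fpm in WENR and 6.80 and 11.1 fpm in d4 ENR, a relative log2 change of -1.31 ± 0.13 (SE, limma adjusted p = 0.0014). The aldehyde dehydrogenase gene *Aldh3a1* held 4.75, 4.09 and 5.58 fpm in WENR and 0.560 and 1.30 fpm in d4 ENR, a relative log2 change of -1.73 ± 0.33 (SE, limma adjusted p = 0.011). Both are textbook targets of AHR, and their d4 ENR values lay below all WENR values on the fpm and on the relative scale. On the fpm scale 86.8% of all tested genes were called lower by limma. The chaperone gene *Hsp90ab1* was lower at -0.24 (adjusted p = 0.025). *Cyp1a1*, the most used AHR target, had a value of 0.11 (adjusted p = 0.85), the repressor gene *Ahrr* -0.29 (adjusted p = 0.21), *Nqo1*, a target of NRF2 as well, 0.59 (adjusted p = 0.12) and *Ahr* -0.27 (adjusted p = 0.072) by limma, and none of these 4 passed the test. The call of *Hsp90ab1* did not hold in the gene body alone, at -0.13 (adjusted p = 0.4). The call of *Aldh3a1* did not hold with 20 kb on each side, at -0.13 (adjusted p = 0.26). The calls of *Aldh3a1* and *Hsp90ab1* did not hold within 1 kb of the gene start, at -0.96 and -0.16 (adjusted p = 0.08 and 0.18). The call of *Hsp90ab1* did not hold with lists of equal length, at -0.19 (adjusted p = 0.050). Without the first WENR library limma did not call *Hsp90ab1*, without the second WENR library *Hsp90ab1*, without the third WENR library *Hsp90ab1* and without the second d4 ENR library *Hsp90ab1*.

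Other groups changed in single members, at shares to be read against 15.6% lower and 12.0% higher of all genes. Of 13 TGF-beta and BMP response genes 3 (23.1%) were higher and 2 (15.4%) lower. The TGF-beta target *Tgfbi* held 6.36, 4.89 and 2.74 fpm in WENR and 9.97 and 10.5 fpm in d4 ENR, a relative log2 change of 1.96 ± 0.34 (SE, limma adjusted p = 0.0077). Among the others that were higher was *Skil* at 0.43 (adjusted p = 0.039, -0.31 on the fpm scale). The BMP target *Id3* changed by -0.82 ± 0.11 (SE, limma adjusted p = 0.0033), and the other member that was lower was *Smad7* at -0.53 (adjusted p = 0.0052). The number higher was 1 without the first WENR library and 1 without the first d4 ENR library. In the Notch pathway, 1 of 9 genes was higher and 2 were lower. The ligand gene *Dll4* was higher at 0.84 ± 0.07 (SE, limma adjusted p = 0.001), with 0.098 on the fpm scale, where its values overlapped. Lower were the receptor gene *Notch2* at -1.17 ± 0.13 (SE, limma adjusted p = 0.0017) and the target *Hes1* at -0.61 ± 0.09 (SE, limma adjusted p = 0.0048). Cell cycle and replication genes stayed near the median, with 2 higher and 2 lower of 29 and a median relative log2 change of -0.01. Among them *Cdc6*, a replication licensing factor, was higher at 0.67 (adjusted p = 0.0022), with -0.08 on the fpm scale, and *Mybl2* lower at -0.69 (adjusted p = 0.0021), and the others were *Mcm7* at 0.24 (adjusted p = 0.032, -0.51 on the fpm scale) and *Cdk1* at -0.27 (adjusted p = 0.029). Of 10 housekeeping genes 1 was lower, *Gapdh* at -0.31 (adjusted p = 0.048). Of 5 tested gastric genes of 12 listed, 1 was higher, *Tff2* at 1.45 (adjusted p = 0.032). Its signal was low, at 0.973, 1.03 and 0.808 fpm in WENR and 1.30 and 1.79 fpm in d4 ENR. The gastric gene *Cldn18* was not tested, with 8.20, 10.5 and 13.5 fpm in WENR and no peak in d4 ENR. Of the other untested gastric genes, *Gkn1* and *Gkn2* had peaks in WENR only and *Muc6* in both media. The calls of *Cdc6*, *Hes1* and *Skil* did not hold in the gene body alone, at -0.11, -0.31 and 0.15 (adjusted p = 0.51, 0.2 and 0.33). The calls of *Cdc6* and *Cdk1* did not hold with 20 kb on each side, at 0.16 and -0.21 (adjusted p = 0.061 and 0.066). The calls of *Mybl2*, *Cdc6*, *Tgfbi*, *Hes1*, *Gapdh*, *Cdk1*, *Mcm7*, *Skil* and *Smad7* did not hold within 1 kb of the gene start, at values from -0.24 to 0.83 (adjusted p = 0.077 to 0.52). Without the first WENR library limma did not call *Tff2*, *Cdk1*, *Mcm7* and *Skil*, without the second WENR library *Tff2*, *Gapdh*, *Cdk1* and *Mcm7*, without the third WENR library *Tff2*, *Gapdh*, *Cdk1* and *Mcm7*, without the first d4 ENR library *Tff2*, *Cdk1*, *Mcm7* and *Skil* and without the second d4 ENR library *Tff2*, *Gapdh* and *Skil*.

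**Figure D5:**
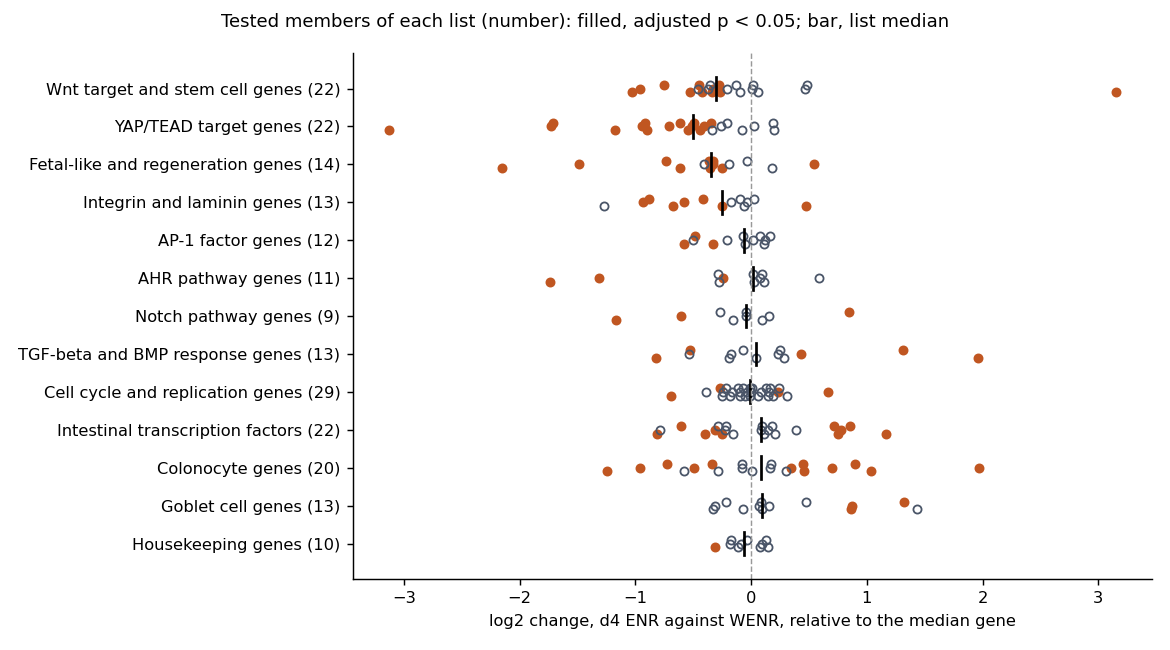
Log2 change of the gene signal from WENR to d4 ENR relative to the median gene, for the tested members of 13 lists in AHR KO organoids. Points are genes, filled where the limma adjusted p is under 0.05, and bars are list medians, which lie furthest below 0 for YAP/TEAD target genes (-0.50) and fetal-like and regeneration genes (-0.34).

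Whether the change with the medium differed between AHR KO and WT organoids was tested over 28205 regions called in all 10 libraries. The interaction of genotype and medium passed limma at an adjusted p of 0.05 in 0 regions (0%), and 2822 regions had an unadjusted p under 0.05. The smallest adjusted p was 0.116. On the fpm scale without centring 0 regions passed as well. The median interaction (AHR KO minus WT) was 0.75 on the log2 scale there, a shift that centring takes out. The WT d4 ENR libraries had 14.1, 24.4 and 30.9% of fragments in peaks, below both AHR KO d4 ENR libraries. Without the first of them 96 of 35321 regions passed and without the third 55 of 28309, so the count rests on single WT libraries. A test that passes nowhere does not show that the genotypes respond alike.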

How the data were processed

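Live cells of dissociated mouse colon organoids were sorted and profiled by Omni-ATAC-seq. According to the study's methods, reads were processed with nf-core/atacseq and BWA, and peaks were called with MACS. Per the file headers, the authors ran MACS 2.2.7.1 in broad mode library by library, with no control, on GRCm38. For each peak the authors deposited the pileup, a coverage signal in fragments that is not scaled for depth, the fold enrichment over the local background, and −log10 p and −log10 q values. Fragment totals and mean fragment lengths came from the file headers. Per-region read counts were not used here, and the study's count test was not repeated.

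The signal of a region or gene was pileup times peak length, divided by the mean fragment length and given per 1000000 fragments of the library (fpm). It joins height and width, and fragments outside called peaks are not in it. Regions and genes with a peak in all 5 libraries were compared on the log2 scale with limma 3.58.1 (R 4.3.3), after each library was centred on its median, with Benjamini-Hochberg adjustment. A value per library was compared by an exact permutation test, 2-sided. Annotation was GENCODE M21, and sequences came from the RefSeq GRCm38 assembly. The genes named are *Ahr*, the 8 largest rises and falls with a mean of at least 10 fpm and groups that do not overlap, and the 4 largest relative changes in each list. For regions the 4 most enriched lost and gained and the 4 largest rises and falls with at least 5 fpm were named. *Aqp8*, *Axin2*, *Ccn1*, *Ccn2*, *Cd3e*, *Cdhr2*, *Cdk1*, *Cldn18*, *Col1a2*, *Cyp1a1*, *Fos*, *Foxa2*, *Gkn1*, *Gkn2*, *Guca2a*, *Hnf4a*, *Hpgd*, *Hsp90ab1*, *Itga2*, *Jun*, *Klf5*, *Krt20*, *Lgr5*, *Lypd8*, *Mcm7*, *Mep1a*, *Muc6*, *Nr5a2*, *Prdm1*, *Rxra*, *Scnn1a*, *Skil*, *Smad7*, *Sox10* and *Sprr1a* were added after their values were seen. The members and lists were chosen with earlier results of these data known. Alternatives were other scalings, measures, windows, filters and list lengths, a replicate block, and leaving out single libraries. Some list members count in the lists but are not reported by name here. The procedure was also run on simulated data with the same spread for every feature. That setting is simpler than these data, and its outcome is not reported here. Python 3.11.15 was used.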

Additional observations from a re-analysis of the deposited data

How the results depend on the processing

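On the fpm scale without centring, 1555 regions were higher and 26109 lower, and 243 genes higher and 13339 lower. Without division by fragment length these were 1149 and 30869 regions. A minimum of 5 fpm left 4419 regions higher. In the 1 kb around gene starts 944 genes were higher and 1111 lower. Lists of equal length gave 4292 lost and 3962 gained regions, and a −log10 q of at least 5 gave 10498 lost and 1041 gained regions. With 1 library left out, lost regions ranged from 9122 to 14215 (highest without the second d4 ENR library), gained regions from 2655 to 5514 (highest without the first, 3839 without the second), regions higher from 5461 (without the first d4 ENR library) to 6976 and lower from 3559 (without the second WENR library) to 6553, genes higher from 1051 (without the first d4 ENR library) to 1384 and lower from 1463 (without the second WENR library) to 2166, and interaction calls from 0 to 96. Without the second and without the third WENR library 1195 and 1149 genes were higher, and without the third 1501 lower. The cause of these differences was not tested. The peak totals and the promoter share kept their direction under every alternative run.

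The replicate numbers only name libraries, since 2 numbers are shared and no source says what they mark. With the number as a replicate block 4305 regions were higher and 4046 lower, 762 genes higher and 1195 lower, and 0 regions passed the interaction, and of the enteroendocrine, tuft cell and AP-1 factor genes 0 were lower. Deviations of same-numbered libraries from their group means correlated at -0.05 and -0.12 over 40706 regions. The deviations of 2 d4 ENR libraries mirror each other by construction, so these correlations do not show whether the numbers mark pairs.

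Single values of list members and regions turned direction as follows, on the log2 scale. On the fpm scale: *Pax6* -0.36, *Sh2d6* -0.42, *Nqo1* -0.16, *Cdc6* -0.079, *Bub1* -0.43, *Sox2* -0.61, *Tbp* -0.60, *Epcam* -0.63, *Pecam1* -0.28, *Cyp1a1* -0.64, *Fos* -0.73, *Itga2* -0.27, *Jun* -0.62, *Mcm7* -0.51, *Nr5a2* -0.029, *Skil* -0.31, *Sprr1a* -0.20. With 20 kb on each side: *Dclk1* 0.58, *Pou2f3* 0.010, *Dll1* 0.12, *Sox2* -0.20, *Cd68* 0.0015, *Col1a1* 0.054, *S100b* 0.056, *Ccn1* 0.068, *Cdhr2* 0.032, *Cyp1a1* -0.089. In the gene body alone: *Cdc6* -0.11, *S100b* 0.026, *Fos* -0.25. At gene starts: *Slc12a2* 0.14, *Il33* 0.13, *Cdc6* -0.19, *Actb* 0.018, *Cdhr2* 0.40, *Fos* -0.13, *Jun* -0.022. With lists of equal length: *Pou2f3* 0.55, *Fos* -0.0025, *Klf5* 0.061. By fold enrichment, the second largest regional rise -0.36 and the first and second largest falls 0.65 and 0.48. With 1 library left out the ranges crossed 0 for *Avil* -1.10 to 0.043, *Cyp1a1* -0.54 to 0.76, *Epcam* -0.031 to 0.27, *Fos* -0.11 to 0.15, *Lgr5* -0.33 to 0.069, *Pecam1* -0.36 to 1.28, *Pou2f3* -1.50 to 0.76, *S100b* -1.98 to 0.0089. The depth of 35860209 to 49126792 fragments limits weak peaks, whose absence is not closure.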

Other observations

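By the nearest protein-coding start, the most lost regions were counted at these genes, named after the values were seen. Of the regions nearest to *Zfhx3* 13 of 50 (26%) were lost, of those of *Myc*, the proliferation factor and Wnt target, 11 of 81 (13.6%), of *Papss1* 11 of 40 (27.5%) and of *Ptprg* 11 of 43 (25.6%), against 10.3% of all regions. The most gained regions were nearest to *C130026I21Rik* on chromosome 1, 12 of 31 (38.7%), against 3.11% of all regions. Genes with many regions head such counts. These counts carry no test.

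The immune marker *Itgam* was higher, at 2.01 ± 0.35 (SE, limma adjusted p = 0.0075), with 2.71, 3.04 and 2.07 fpm in WENR and 7.79 and 4.88 fpm in d4 ENR, while *Cd68* had 43.8, 44.7 and 42.1 fpm in WENR and 20.4 and 24.4 fpm in d4 ENR. The mesenchymal markers *Pdgfra* and *Acta2* were lower, at -0.68 and -1.35 (limma adjusted p = 0.019 and 0.047), and the endothelial marker *Cdh5* was lower, at -1.82 (limma adjusted p = 0.011).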
